A study of Mus musculus with 9 samples.

Results

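The metallothioneins Mt1 and Mt2, the metal-responsive transcription factor Mtf1 and 7 zinc carriers were followed across mast cells grown from mouse bone marrow. These 10 genes were the listed rows Mt1, Mt2, Mtf1, Slc30a1, Slc30a4, Slc30a5, Slc39a1, Slc39a6, Slc39a10 and Slc39a14 out of 23951 in the deposited expression table, and all 10 were found there. The cells came from wild-type C57BL/6 marrow kept for 4 to 6 weeks in interleukin-3 and stem cell factor (10 ng/ml each), and over 95% carried the high-affinity IgE receptor and CD117, per the labels. There were 3 libraries in each of 3 groups: untreated cells, cells sensitized for 18 h with anti-DNP IgE at 0.5 µg/ml (the IgE group), and cells sensitized in the same way and afterwards exposed for 2 h to DNP-BSA at 50 ng/ml, an antigen that cross-links the bound IgE (the antigen group). Levels are given in FPKM, fragments scaled to transcript length and to library size, so genes can be set beside each other within a library.

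Zinc in a cell is held at a low free level by 3 kinds of protein. Metallothioneins are small cysteine-rich proteins that bind zinc and copper in the cytosol. Slc30 proteins (ZnT) move zinc out of the cytosol, across the plasma membrane or into vesicles and the Golgi, and Slc39 proteins (ZIP) move it in. MTF-1, the product of Mtf1, senses zinc with its zinc fingers and binds metal response elements in the promoters of metallothionein genes and of Slc30a1. In mast cells, cross-linking of the IgE receptor is known to be followed by a rise of free zinc in the cytosol, and ZnT5 (Slc30a5) is known from knockout mice to be needed for part of the cytokine response to antigen.

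The promoters are shown because MTF-1 is known to act through them, and because Mt1, Mt2 and Slc30a1 all rose with antigen while Slc30a5 fell. Each line gives the 250 bases before the RefSeq start of the gene in GRCm38.p6 (not mm9, the build that the submitters' processing notes name), read 5′ to 3′ on the strand of the gene. Capitals mark the core of the metal response element, TGCACNC or TGCGCNC with N for any base, searched on both strands, so a match to the reverse strand appears as its reverse complement.
Mt1, chr8:94178839-94179088, + strand: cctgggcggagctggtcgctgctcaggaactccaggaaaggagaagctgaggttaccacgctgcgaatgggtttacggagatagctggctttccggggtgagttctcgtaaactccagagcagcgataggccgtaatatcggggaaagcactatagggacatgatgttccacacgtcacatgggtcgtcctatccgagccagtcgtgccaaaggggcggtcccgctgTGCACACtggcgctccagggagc
Mt2, chr8:94172368-94172617, + strand: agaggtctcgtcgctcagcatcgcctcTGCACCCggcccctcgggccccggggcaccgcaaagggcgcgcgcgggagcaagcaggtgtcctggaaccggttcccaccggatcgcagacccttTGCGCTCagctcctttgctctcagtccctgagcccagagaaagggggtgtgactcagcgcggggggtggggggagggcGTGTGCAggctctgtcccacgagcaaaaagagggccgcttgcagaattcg
Slc30a1, chr1:191906531-191906780, + strand: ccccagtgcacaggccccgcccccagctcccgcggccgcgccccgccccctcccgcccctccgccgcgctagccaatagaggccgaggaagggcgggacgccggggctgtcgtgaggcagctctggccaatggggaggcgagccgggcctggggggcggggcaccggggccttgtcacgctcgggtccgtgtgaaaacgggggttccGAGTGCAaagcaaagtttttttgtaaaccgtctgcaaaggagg
Slc30a5, chr13:100833428-100833677, - strand: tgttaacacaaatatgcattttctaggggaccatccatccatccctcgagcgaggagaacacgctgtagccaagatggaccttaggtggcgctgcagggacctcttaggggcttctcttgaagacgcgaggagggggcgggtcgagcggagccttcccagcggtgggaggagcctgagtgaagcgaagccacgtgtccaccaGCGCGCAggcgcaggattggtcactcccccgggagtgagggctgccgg
Mt2 held 3 cores in this stretch, and Mt1, Slc30a1 and Slc30a5 held 1 each. Of 32851 promoters in the RefSeq table, 21.4% held at least 1 core and 1.26% held at least 3. The stretch of Mt2 also held 1 match to TGANTCA, the core bound by AP-1, which was present in 6.75% of promoters. RefSeq starts are not the only annotated ones: GENCODE M21 transcripts of Mt1 begin 7 bases upstream and 122 and 152 bases downstream of its RefSeq start, and those of Mt2 begin 46 and 242 bases downstream of its own. The printed stretches stop short of these downstream starts, so the counts in them depend on the start chosen and do not rank the genes. With the next 50 bases of the table's windows included, Mt1 held 3 cores, Mt2 4, Slc30a1 2 and Slc30a5 1. The shares over all promoters are for 250 bases and were not counted with these further 50. Of the 10 genes, 8 were matched in the table, all except Slc39a6 and Slc39a14. The other matched genes held 2 cores (Slc30a4) or 0 (Mtf1, Slc39a1 and both windows of Slc39a10). A match is a description of the letters and not evidence of binding.

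The estimated depth was 30.1 to 33.6 M reads in untreated, 32.5 to 40 M in IgE and 21 to 28.7 M in antigen libraries. IgE replicate 3 lay farthest from its group, with an SD of 0.175 for its log2 differences from the other 2 libraries over 9661 genes, against 0.099 to 0.123 in the other 8 libraries. It was the highest IgE library for 5 of the 10 genes and the lowest for 3, where over all tested genes it was the highest for 37% and the lowest for 46.7%. In antigen replicate 3, each of 415 X- and Y-linked genes detected everywhere else had a value of 0, but none of the 10 genes lies on them and none was at 0 in any library. Of 10 mast cell markers, Cpa3 and Cma1, both known as abundant mast cell genes, were listed at 0 in all 9 libraries, so that a listed 0 in this table can be a failed estimate and is not read as absence here. Of the same markers, Kit (CD117) was at 447 ± 26.1, 433 ± 55.4 and 457 ± 14.2 FPKM in untreated, IgE and antigen libraries and the other 7 were also above 0 in every library. Not all of these 8 were level. With antigen versus IgE, 3 were called higher, 1 lower and 4 neither, where 71.1% of all tested genes were called. In the same order of groups, Ms4a2 was at 1190 ± 17.8, 1080 ± 78.5 and 626 ± 11.6 FPKM. Hdc was at 27.1 ± 1.23, 28.7 ± 1.64 and 895 ± 28.8 FPKM. Summed B cell and T cell markers reached at most 0.272 and 0.546 FPKM in any library, and of the T cell markers Cd3e and Cd3g were listed at 0 throughout. Not all marker lists were near 0. In untreated, IgE and antigen libraries, summed basophil markers were at 603 ± 19.5, 526 ± 26.7 and 604 ± 27.1 FPKM, mostly Cd200r3. Of these, Prss34 had means of 120, 92.1 and 54.7 FPKM and Mcpt8 of 12.4, 16.9 and 19.5 FPKM. Gata1 was at 0 in antigen replicate 3. Summed megakaryocyte markers were at 447 ± 3.18, 381 ± 8.84 and 415 ± 6.37 FPKM, mostly Itga2b. The part of such cells was not tested.

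Mt1 and Mt2 rose in both steps, and they were the genes of the 10 with the largest changes. Mt1 was at 136, 119 and 126 FPKM in the untreated libraries, at 204, 238 and 227 FPKM in the IgE libraries and at 472, 437 and 464 FPKM in the antigen libraries. Every IgE library was above every untreated one, and every antigen library above every IgE one. With IgE the mean of Mt1 went from 127 ± 8.4 to 223 ± 17.1 FPKM (SD, n = 3), 1.76-fold higher (log2 0.81, SE 0.0686, limma's adjusted p = 0.000264). Here and below, log2 changes are differences of log2(FPKM + 1), which understate changes of low genes, and adjusted p-values are limma's after Benjamini-Hochberg adjustment over the 10890 tested genes. With antigen it rose a further 2.05-fold to 458 ± 18.4 FPKM (log2 1.04, SE 0.0686, adjusted p = 2.4e-06). The size of this step depended on the scaling, and after quantile normalization it was smaller (log2 0.72, adjusted p = 2.8e-05). In bulk libraries such as these, more or fewer cells of a type and more or less RNA per cell cannot be told apart.

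Mt2 lay far below Mt1 and rose more steeply with antigen. It was at 3.78, 4.05 and 5.27 FPKM in untreated libraries, at 7.07, 6.89 and 6.85 FPKM with IgE and at 29.7, 31.3 and 34.3 FPKM with antigen. The 3 groups did not overlap, and the IgE libraries had an SD of 0.118 FPKM. Its IgE step was 1.59-fold (log2 0.57, SE 0.0981, adjusted p = 0.00433) and its antigen step 4.58-fold (log2 2.04, SE 0.0981, adjusted p = 3.35e-07). Mt2 therefore stood at rank 179 from the top among the 10890 changes with antigen, and Mt1 at rank 766. In the IgE step the order was turned, with Mt1 at rank 37 and Mt2 at rank 163.

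The ratio of the 2 genes was higher in the antigen libraries. Mt2 was at 2.79%, 3.40% and 4.17% of the Mt1 level in untreated libraries and at 3.46%, 2.89% and 3.01% with IgE, ranges that overlap. With antigen it was at 6.29%, 7.15% and 7.38%, above all 6 other libraries. This ratio was not tested. The transcripts of Mt1 and Mt2 in GENCODE M21 share no stretch of 25 bases, so no exact match of that length is common to both. The estimated reads behind Mt2 were 62 to 503 per library, which gives a counting error of 12.7% at the lowest and 4.46% at the highest. The coefficient of variation (CV) of Mt2 in the IgE libraries, 1.71%, lay below both, so the closeness of these libraries is not read as precision. Those reads behind Mt1 were at least 3880. Summed over Mt1, Mt2, Mt3 and Mt4, metallothionein FPKM went from 131 ± 8.26 to 230 ± 17.05 and 490 ± 18.4. Mt3 did not exceed 0.119 FPKM in any library and Mt4 was listed at 0 in all 9.

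**Figure D1:**
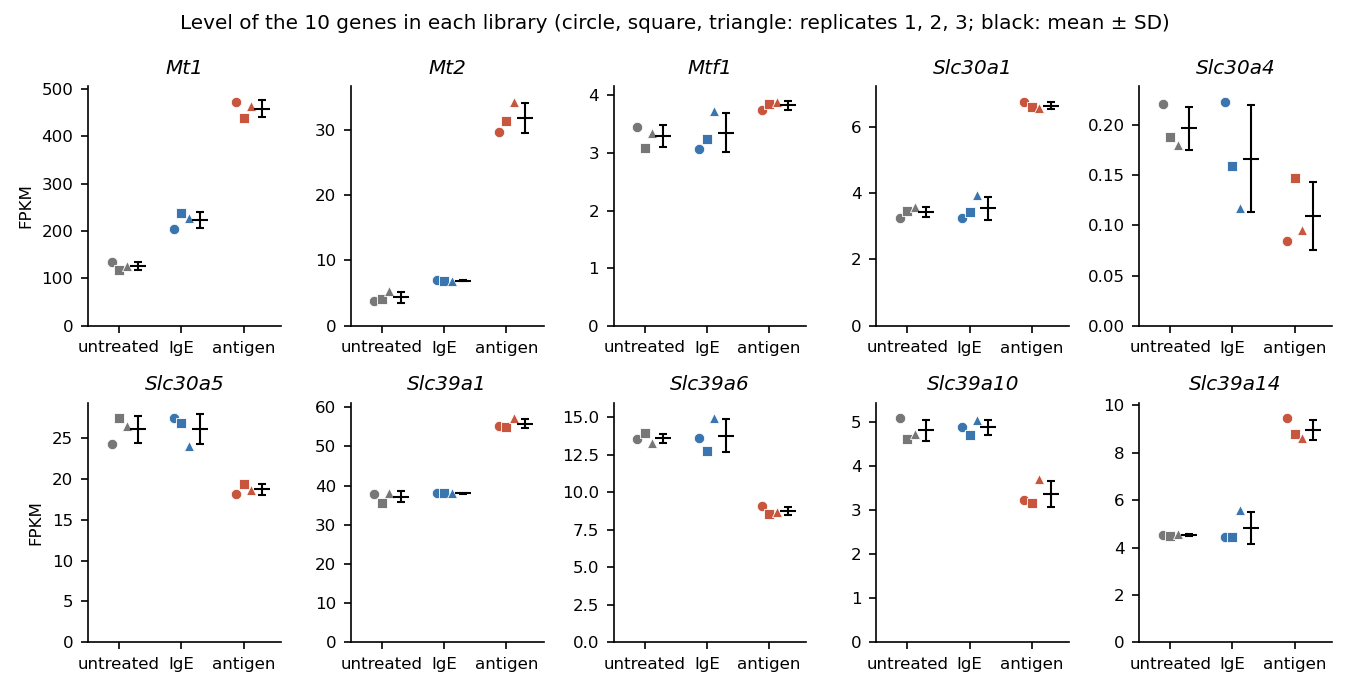
FPKM of each of the 10 genes in the 9 libraries, 1 panel a gene, with a linear axis from 0; symbols are libraries and black marks the group mean with its SD (n = 3). Mt1 and Mt2 step up from untreated to IgE to antigen, while Slc30a1, Slc39a1 and Slc39a14 are higher and Slc30a5, Slc39a6 and Slc39a10 lower in all 3 antigen libraries than in the other 6.

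Mtf1 itself was nearly level. Its level was 3.45, 3.08 and 3.34 FPKM in untreated libraries, 3.08, 3.25 and 3.73 FPKM with IgE and 3.75, 3.85 and 3.89 FPKM with antigen. The antigen libraries were all above the others, with IgE replicate 3 just below the lowest of them. Antigen versus IgE gave a log2 difference of 0.15 (SE 0.0624, adjusted p = 0.0555), which was not called. It was called under 4 of 21 alternatives, over which its adjusted p ran from 0.00642 to 0.176. One was without IgE replicate 3 (0.21 on the log2 scale, adjusted p = 0.00642) and one without IgE and antigen replicate 3 together (0.0205). The others were quantile normalization (log2 0.25, adjusted p = 0.00883) and no trend in the prior (0.047). Against untreated cells the difference was 0.17 (adjusted p = 0.0361), a call that was lost under 8 of 21 alternatives, with adjusted p from 0.00356 to 0.117. These were median centring (0.0696), trimmed mean scaling (0.0609), no filter (0.0616), and leaving out untreated replicate 2 or 3 (0.117 and 0.0672) or antigen replicate 1, 2 or 3 (0.0598, 0.0822 and 0.0846). IgE versus untreated gave 0.02 (adjusted p = 0.871).

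Among the exporters, Slc30a1, the ZnT1 carrier of the plasma membrane, rose with antigen. It was at 3.26, 3.46 and 3.57 FPKM in untreated, 3.26, 3.42 and 3.94 FPKM in IgE and 6.75, 6.60 and 6.55 FPKM in antigen libraries. Untreated and IgE libraries overlapped, and the antigen libraries lay well above both. The rise over IgE was 1.87-fold (log2 0.75, SE 0.0597, adjusted p = 7.11e-06), while IgE versus untreated differed by 0.03 on the log2 scale (adjusted p = 0.722).

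Slc30a5, which encodes the Golgi carrier ZnT5, fell with antigen. The untreated libraries were at 24.2, 27.4 and 26.4 FPKM, the IgE libraries at 27.4, 26.8 and 23.9 FPKM and the antigen libraries at 18.1, 19.4 and 18.6 FPKM. Only the antigen group stood apart, 1.39-fold below IgE (log2 -0.46, SE 0.0625, adjusted p = 0.000216). The IgE and untreated means, 26.03 and 26.01 FPKM, gave a log2 difference of 0.00 (adjusted p = 0.993).

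Slc30a4, the vesicular carrier ZnT4, was the 1 gene of the 10 below the filter of 1 FPKM in at least 3 libraries. It was at 0.221, 0.188 and 0.180 FPKM in untreated, 0.223, 0.158 and 0.117 FPKM in IgE and 0.0848, 0.147 and 0.0949 FPKM in antigen libraries. The antigen values were all below the untreated ones, and the IgE values overlapped both groups. At 11.5 to 42.3 estimated reads per library, counting error alone was 15.4% to 29.4%. Tested without the filter among 17019 genes, antigen versus untreated gave a log2 difference of -0.11 (adjusted p = 0.0325), antigen versus IgE -0.07 (adjusted p = 0.136) and IgE versus untreated -0.04 (adjusted p = 0.575).

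Of the importers, Slc39a1 and Slc39a14 rose with antigen and Slc39a6 and Slc39a10 fell. Slc39a1, the ZIP1 carrier of the plasma membrane, was the most abundant zinc carrier of the 10 genes. Its levels were 37.9, 35.6 and 38.1 FPKM in untreated libraries, 38.1, 38.0 and 38.0 FPKM with IgE and 55.3, 55.0 and 57.2 FPKM with antigen. The first 2 groups overlapped and the antigen libraries were 1.47-fold above IgE (log2 0.54, SE 0.0335, adjusted p = 1.59e-06). Over the 21 alternatives this log2 difference ran from 0.37 to 0.55.

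Slc39a14, ZIP14, which carries iron and manganese as well as zinc, rose with antigen. It was at 4.54, 4.48 and 4.55 FPKM in untreated, 4.46, 4.43 and 5.58 FPKM in IgE and 9.45, 8.80 and 8.62 FPKM in antigen libraries. IgE replicate 3 was 1.25 times the mean of the other 2 IgE libraries, yet still below every antigen library. The rise over IgE was 1.86-fold (log2 0.78, SE 0.0757, adjusted p = 2.54e-05).

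Slc39a6 and Slc39a10 encode the related carriers ZIP6 and ZIP10, which are known to pair with each other at the plasma membrane. Slc39a6 was at 13.6, 13.9 and 13.3 FPKM in untreated libraries, 13.6, 12.7 and 14.9 FPKM with IgE and 9.05, 8.52 and 8.66 FPKM with antigen. Slc39a10 was at 5.09, 4.62 and 4.72 FPKM, then 4.89, 4.72 and 5.05 FPKM, then 3.23, 3.17 and 3.71 FPKM in the same order of groups. For both, untreated and IgE libraries overlapped and all antigen libraries lay below them. Slc39a6 fell 1.57-fold from IgE to antigen (log2 -0.60, SE 0.0553, adjusted p = 1.89e-05) and Slc39a10 fell 1.45-fold (log2 -0.43, SE 0.059, adjusted p = 0.000212). Slc39a10 is described as repressed by MTF-1 when zinc is high.

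In all, 5 of the 9 tested genes were called higher with antigen than with IgE, where 36.2% of all tested genes were, and 3 were called lower, where 34.9% were, so that 8 of 9 were called beside 71.1% of all. Antigen and IgE libraries did not overlap in 9 of 9, against 74.2% of all tested genes. Their median log2 change was 0.54, against -0.01 over all tested genes. For IgE versus untreated, 2 of 9 were called higher (Mt1 and Mt2), against 14.5% of all tested genes, and 0 lower, against 13.1%, or 2 of 9 in either direction beside 27.5%. In this comparison 2 of 9 did not overlap, against 43.2% of all tested genes. At an unadjusted p under 0.05, the count of lower genes among them was also 0, and their median was 0.03. The background of this comparison depended on single libraries: 1575 genes were called higher and 1424 lower with all libraries, 1015 and 899 without untreated replicate 1, and 880 lower without untreated replicate 3. For antigen versus untreated, which shares its libraries with the other comparisons, 6 of 9 were called higher, against 37.2% of all tested genes, and 3 lower, against 34.4%, or 9 of 9 in either direction beside 71.7%. Antigen and untreated libraries did not overlap in 9 of 9, 6 higher (40.2% of all tested genes) and 3 lower (38%), against 78.3% in either direction. Leaving out the third replicate of both IgE and antigen cells gave 6 higher and 3 lower against IgE, where Mtf1 was the added call, 2 and 0 for IgE against untreated, and 6 and 3 for antigen against untreated, where 73.7%, 38.7% and 76.2% of all tested genes were called.

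**Figure D2:**
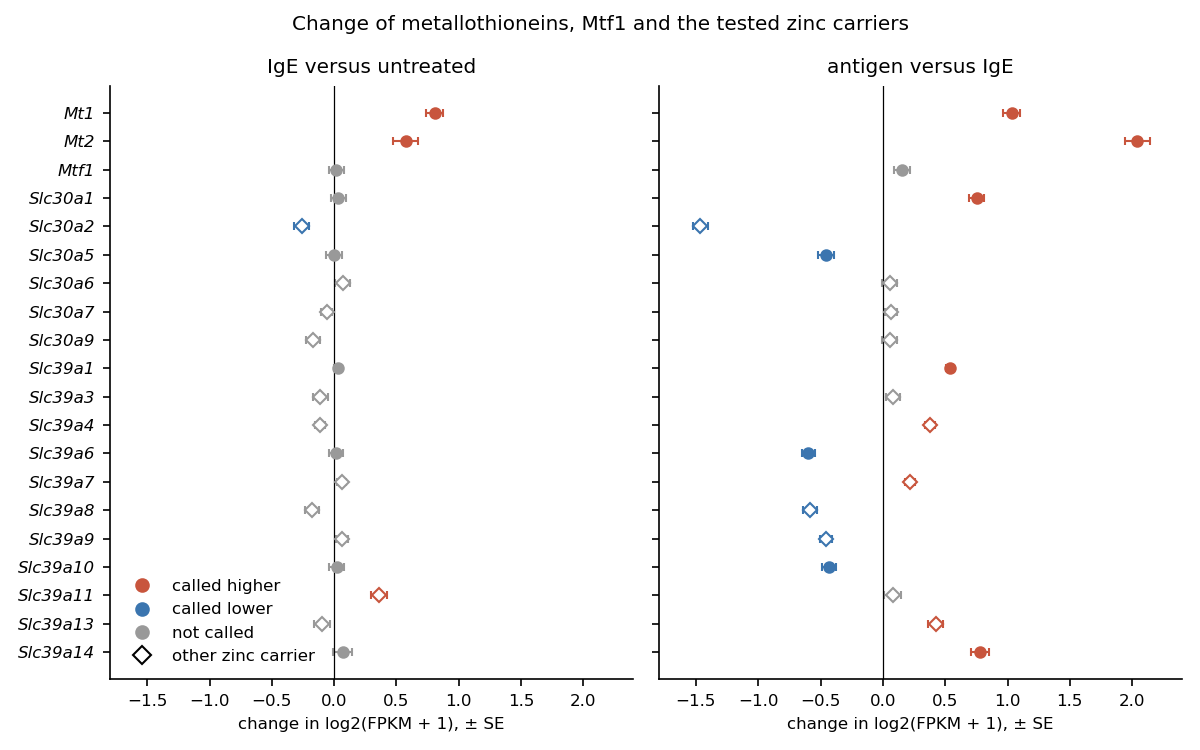
Change in log2(FPKM + 1) with its SE for Mt1, Mt2, Mtf1 and the 17 tested zinc carriers, for IgE versus untreated on the left and antigen versus IgE on the right; filled circles are genes of the 10 and open diamonds the other carriers. With IgE alone the points lie near 0 except for Mt1, Mt2, Slc30a2 and Slc39a11, and with antigen they spread from -1.46 (Slc30a2) to 2.04 (Mt2).

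The other carriers of both families put these genes in context. Of 24 Slc30 and Slc39 genes, 17 passed the filter, and with antigen versus IgE 6 were called higher, 6 lower and 5 neither, so that 12 of 17 were called beside 71.1% of all tested genes. Among the 11 of them outside the 10 genes, 3 were higher, 3 lower and 5 neither. Slc30a2, the vesicular carrier ZnT2, had the largest change of any carrier. It was at 28.8, 28.2 and 27.6 FPKM in untreated libraries, 22.7, 21.8 and 25.8 FPKM with IgE and 7.72, 7.58 and 8.23 FPKM with antigen, and the groups did not overlap. It fell 2.99-fold from IgE to antigen (log2 -1.46, SE 0.0618, adjusted p = 1.57e-07), which put it at rank 218 from the bottom of all tested genes. Its smaller change with IgE alone (log2 -0.26, adjusted p = 0.0164) lost its call without untreated replicate 1, IgE replicate 1 or IgE replicate 2 (adjusted p = 0.0593, 0.0544 and 0.0529).

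The remaining tested exporters did not pass the test in either step with all libraries and the main settings. Slc30a9, a mitochondrial carrier, was at 21.4 ± 1.65, 18.8 ± 0.211 and 19.6 ± 0.969 FPKM in untreated, IgE and antigen libraries. Its IgE libraries were all below the untreated ones (log2 -0.17, adjusted p = 0.0559), and this difference was called under 6 of 21 alternatives, with adjusted p from 0.0266 to 0.137. Among these were leaving out untreated replicate 1 (0.0317) or antigen replicate 3 (0.0447). Slc30a7, a Golgi carrier, was at 7.03 ± 0.315, 6.69 ± 0.185 and 7.05 ± 0.276 FPKM. Slc30a6, the partner of ZnT5 in the Golgi, was at 5.77 ± 0.281, 6.10 ± 0.467 and 6.37 ± 0.205 FPKM. Slc30a5 thus fell with antigen while its partner did not pass (log2 0.05, adjusted p = 0.421), although the difference between the 2 genes was not tested. Slc30a8 and Slc30a10 were listed at 0 in all libraries and Slc30a3 in all but 1.

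Among the other importers, Slc39a4, Slc39a7 and Slc39a13 were called higher with antigen and Slc39a8 and Slc39a9 lower. Slc39a7, the ZIP7 carrier of the endoplasmic reticulum, was the most abundant carrier before stimulation and went from 44.3 ± 1.45 with IgE to 51.7 ± 1.57 FPKM (log2 0.22, adjusted p = 0.00119). That call was lost after quantile normalization (log2 0.04, adjusted p = 0.342). Slc39a13, a Golgi carrier, went from 9.33 ± 0.669 to 12.9 ± 0.684 FPKM and Slc39a4 from 15.8 ± 0.464 to 20.9 ± 0.773 FPKM. Slc39a8, ZIP8, the closest relative of ZIP14, moved opposite to it, from 2.16 ± 0.204 to 1.10 ± 0.0405 FPKM (log2 -0.58, adjusted p = 2.49e-05). Slc39a9 went from 10.3 ± 0.528 to 7.23 ± 0.185 FPKM.
Slc39a11 was the 1 importer called with IgE alone, from 9.56 ± 0.756 to 12.5 ± 0.699 FPKM (log2 0.36, adjusted p = 0.00652), and it stood at 13.3 ± 0.866 FPKM with antigen (adjusted p = 0.315 against IgE). Slc39a8 with IgE alone gave a difference just short of the threshold (log2 -0.18, adjusted p = 0.0501), with no overlap between the groups, and was called under 4 of 21 alternatives, with adjusted p from 0.0281 to 0.258, one of them without IgE replicate 3 (0.0281). Slc39a3 did not pass in any comparison, with 5.26 ± 0.330, 4.79 ± 0.180 and 5.12 ± 0.357 FPKM. Slc39a2 was at 0.161 FPKM or less in every library, Slc39a5 at 0.0458 FPKM or less, and Slc39a12 was listed at 0.

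In untreated cells the order of the importers was Slc39a7 (42.5 ± 1.44 FPKM), Slc39a1 (37.2 ± 1.37 FPKM), Slc39a4 (17.2 ± 0.382 FPKM) and Slc39a6 (13.6 ± 0.313 FPKM). Each was apart from the next by more than their SDs, which are spreads of 1 gene over libraries. Errors that differ between genes, such as in the transcript length used, are not in these SDs, so the order is a description. Slc39a13, Slc39a9 and Slc39a11 followed at 10.04 ± 0.483, 9.80 ± 0.421 and 9.56 ± 0.756 FPKM and did not differ beyond their spread. Among the exporters Slc30a2 (28.2 ± 0.632 FPKM) and Slc30a5 (26.0 ± 1.64 FPKM) led, ahead of Slc30a9. With antigen Slc39a1 and Slc39a7 changed places, at 55.8 ± 1.18 and 51.7 ± 1.57 FPKM, and Slc30a2 dropped to 7.84 ± 0.342 FPKM, next to Slc30a7 at 7.05 ± 0.276 FPKM. Slc30a1 was at 0.113 to 0.129 of the Slc30a2 level in untreated libraries, at 0.144 to 0.157 with IgE and at 0.797 to 0.874 with antigen. Summed FPKM of the Slc30 genes went from 92.03 ± 3.18 in untreated to 84.8 ± 0.839 in IgE and 66.3 ± 0.476 in antigen libraries. Without Slc30a2 these sums were 63.8 ± 3.57, 61.4 ± 2.37 and 58.4 ± 0.816. Summed FPKM of the Slc39 genes went from 157 ± 1.34 to 161 ± 1.08 and 189 ± 0.449. The sum over all rows also rose, from 494821 ± 22215.5 in untreated to 504398 ± 20570.6 in IgE and 568227 ± 11962 in antigen libraries. The Slc39 rise was not separated from this rise of the whole. These sums are descriptions and were not tested.

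**Figure D3:**
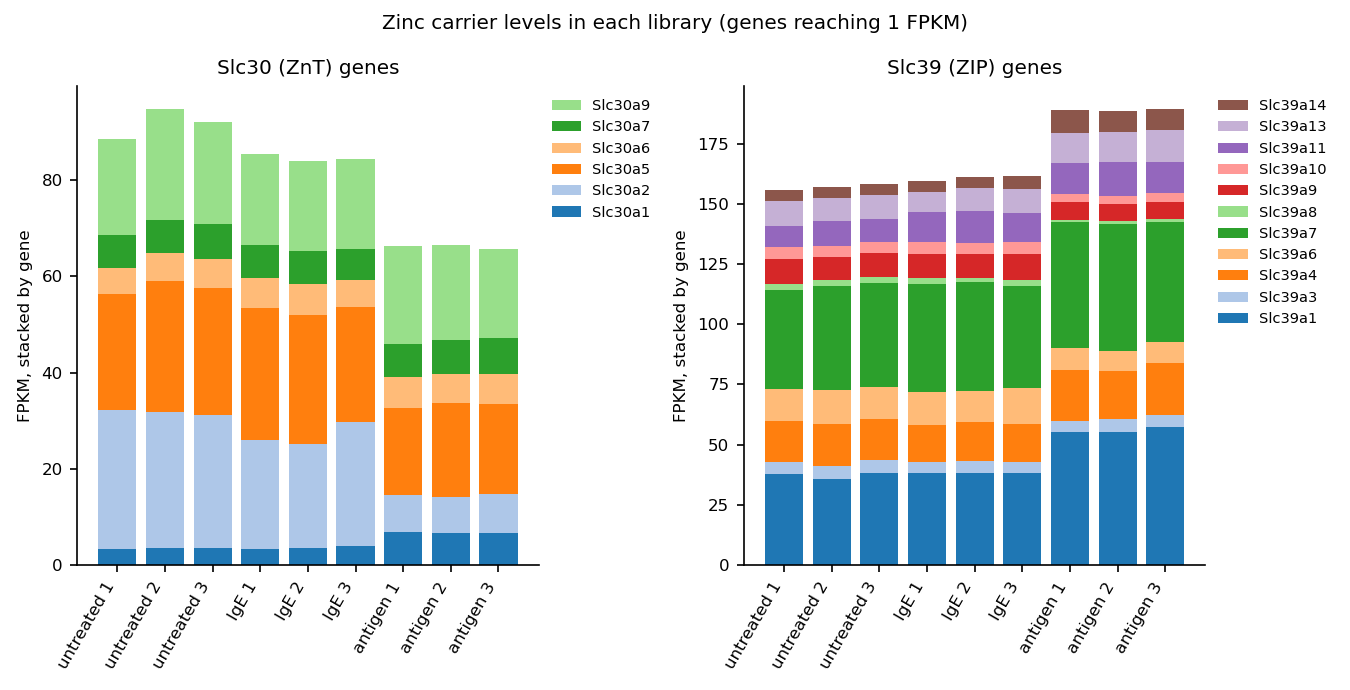
FPKM of the Slc30 genes (left) and Slc39 genes (right) that reached 1 FPKM, stacked by gene, 1 bar a library, with axes from 0. The Slc30 bars are shorter in the antigen libraries, mainly in the Slc30a2 segment, and the Slc39 bars are taller, mainly in the Slc39a1 segment.

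Genes described as targets of MTF-1 were set beside the metallothioneins. Of 10 such genes, which include Mt1, Mt2, Slc30a1 and Slc39a10, 8 were tested. With antigen versus IgE 5 were called higher and 2 lower, 7 of 8 beside 71.1% of all tested genes, with a median log2 change of 0.89 against -0.01 over all. The 4 members make up 4 of these 7 calls. Ndrg1, a stress-induced gene that hypoxia and metals raise, went from 67.9, 68.1 and 66.4 FPKM with IgE to 531, 506 and 513 FPKM with antigen, 7.66-fold higher (log2 2.92, adjusted p = 4.29e-10). Gclc, the catalytic subunit of the enzyme that starts glutathione synthesis, was at 21.5, 21.0 and 20.9 FPKM in untreated, 27.3, 27.7 and 26.4 FPKM in IgE and 73.5, 71.6 and 72.2 FPKM in antigen libraries. Like Mt1 and Mt2, Gclc rose in both steps (log2 0.35, adjusted p = 0.000283 with IgE; log2 1.38, adjusted p = 4.06e-09 with antigen). Ndrg1 did not pass with IgE alone (log2 -0.09, adjusted p = 0.0985, and between 0.032 and 0.272 under the alternatives).
Csrp1, a LIM domain protein, rose with IgE from 81.8 ± 4.00 to 109 ± 2.87 FPKM (log2 0.41, adjusted p = 0.000856) and was at 116 ± 5.25 FPKM with antigen. Its antigen difference was 0.10 (adjusted p = 0.0961) and turned to -0.19 (adjusted p = 0.00583) after quantile normalization. The lower genes were Slc39a10 and Sepw1, a selenoprotein at 42.4 ± 5.33 and 34.8 ± 2.73 FPKM, named after its values were seen. Slc40a1 and Pgf were below the filter.

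**Figure D4:**
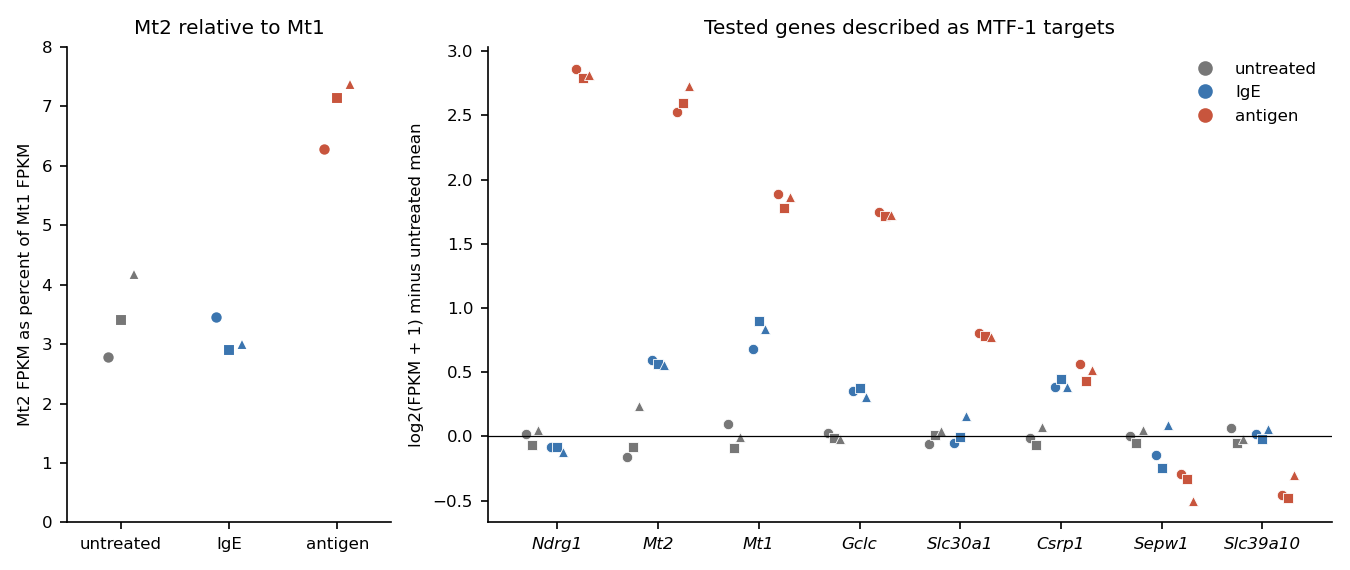
Left, Mt2 FPKM as a percentage of Mt1 FPKM in each library, from 2.79% to 4.17% in the 6 libraries without antigen and from 6.29% to 7.38% with antigen. Right, log2(FPKM + 1) minus the untreated mean for the 8 tested genes described as MTF-1 targets; circles, squares and triangles are replicates 1, 2 and 3, and Mt2, Mt1 and Gclc step up with IgE and again with antigen while Ndrg1 and Slc30a1 are raised in the antigen libraries.

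Metallothioneins also bind copper, so copper carriers and chaperones were counted. Of 11 genes 10 were tested, and with antigen versus IgE 3 were called higher, 1 lower and 6 neither, so that 4 of 10 were called beside 71.1% of all tested genes. One of the 6 was the X-linked copper pump Atp7a, named after its values were seen, which was at 3.23, 2.96 and 3.32 FPKM with IgE and at 6.41, 7.14 and 0 FPKM with antigen, where the 0 is that of antigen replicate 3. Its log2 difference of -0.09 (SE 0.694, adjusted p = 0.914) includes that 0. With the X- and Y-linked zeros of antigen replicate 3 set to missing, so that Atp7a had 2 antigen values, the difference was 0.90 (SE 0.0652, adjusted p = 1.57e-06), and 4 of the 10 copper genes were called higher, 2 lower and 4 neither. In that setting 4082 of the 10890 tested genes were called higher and 3935 lower. Slc31a2, a copper carrier of endosomes and lysosomes, went from 7.56, 6.85 and 6.27 FPKM with IgE to 16.4, 15.3 and 16.1 FPKM with antigen, 2.31-fold higher (log2 1.10, adjusted p = 7.09e-07). Slc31a1, the high-affinity copper importer, went from 7.35, 6.68 and 6.98 FPKM to 9.04, 9.44 and 8.28 FPKM (log2 0.31, adjusted p = 0.00124). Ccs, the copper chaperone of superoxide dismutase, fell from 20.2 ± 0.376 to 16.07 ± 0.262 FPKM (log2 -0.31, adjusted p = 0.000285). Atox1, the copper chaperone of the secretory route, was called higher with antigen (log2 0.18, adjusted p = 0.00794), but its sign turned after quantile normalization (log2 -0.14, adjusted p = 0.0347). With IgE alone 3 of the 10 copper genes were called, beside 27.5% of all tested genes. They were Atox1, Commd1 and Sco2, each higher by 0.20 to 0.30 on the log2 scale, and all 3 calls depended on single libraries. The call of Atox1 was lost without untreated replicate 1 or 2 or IgE replicate 2 (adjusted p = 0.0615, 0.0525 and 0.0615), and after quantile normalization (0.0657). That of Commd1 was lost without untreated replicate 1 or 3 or IgE replicate 1 or 2 (0.0616, 0.0641, 0.0598 and 0.0681). That of Sco2 was lost without any 1 of the 6 libraries (0.0602 to 0.132), without IgE replicate 3 and antigen replicate 3 together (0.0605), and with no filter (0.0655).

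The genes whose course was most like that of a member were sought for the 3 members with the largest range of group means, Mt2, Mt1 and Slc39a14. Likeness was the Euclidean distance over the 9 libraries of log2(FPKM + 1) after subtracting the untreated mean. Short RNAs (symbols that start with Mir, Snor or Rnu) were left out. Nearest to Mt2 were Oaf (distance 0.459), Trib3 (0.503), Atp6v0d2 (0.570), Klf10 (0.571) and Steap3 (0.594). Trib3 is a pseudokinase of the stress response, Atp6v0d2 a subunit of the vesicular proton pump and Steap3 a metalloreductase that acts on iron and copper. Trib3, for example, went from 5.50 to 7.96 and 38.2 FPKM in untreated, IgE and antigen means.
Nearest to Mt1 were Cd68 (distance 0.320), Cox7a1 (0.512), Col18a1 (0.621), Pxmp2 (0.665) and Ctsg (0.684). Cd68, a lysosomal membrane protein and a common macrophage marker, had means of 8.62, 16.1 and 30.2 FPKM. The summed level of the 6 macrophage markers was 93.02 to 99.01 FPKM in untreated, 77.5 to 83.9 FPKM in IgE and 77.4 to 78.3 FPKM in antigen libraries, so that it was lower with IgE than without and the IgE and antigen ranges overlapped. Of the 4 tested macrophage markers, Cd68 and Cd163 were called higher and Lyz2 (means 72.1, 53.8 and 37.5 FPKM) and Emr1 lower with antigen than with IgE. The summed level of the 6 erythroid markers was higher in each step, at 17.8 to 21.0 FPKM in untreated, 24.7 to 25.9 FPKM in IgE and 30.5 to 31.8 FPKM in antigen libraries, and these groups did not overlap, as for Mt1 and Mt2. Most of it was the globin gene Hbb-bt (means 15.0, 21.1 and 25.5 FPKM), and the globin gene Hba-a1 stayed under 1 FPKM in each library. The part of either cell type in the metallothionein values was not tested. Nearest to Slc39a14 were Palm3 (distance 0.172), Slc30a1 (0.177), Gatad2a (0.180), Ccdc88c (0.189) and Ankrd9 (0.195). Slc30a1, the plasma membrane exporter, was therefore the second nearest of the tested genes, short RNAs aside, to the importer Slc39a14, with antigen minus untreated log2 differences of 0.79 and 0.85. Among the IgE libraries both were highest in IgE replicate 3, at 1.18 and 1.25 times the mean of the other 2. Palm3, Ccdc88c and, near Mt1, Col18a1 had untreated and IgE means under 1 FPKM, where log2(FPKM + 1) understates changes. In untreated, IgE and antigen libraries the means were 0.323, 0.354 and 1.46 FPKM for Palm3. Those of Ccdc88c were 0.525, 0.531 and 1.64 FPKM, and those of Col18a1 0.161, 0.731 and 2.57 FPKM. For these 3 genes the likeness holds on this scale and is not a likeness of fold changes. The distances carry no test and describe these 9 libraries.

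Against untreated cells, the metallothioneins had the largest changes of the 10 genes. Mt2 was 7.27-fold higher with antigen than untreated (log2 2.62, adjusted p = 7.12e-08) and Mt1 3.61-fold (log2 1.84, adjusted p = 6.8e-08). Over the 21 alternatives the log2 difference of Mt1 ran from 1.43 to 1.89. Slc39a14 was 1.98-fold and Slc30a1 1.94-fold higher and Slc39a1 was 50.1% higher, while Slc39a6 was 1.55-fold, Slc39a10 1.43-fold and Slc30a5 1.39-fold lower. For these 6 carriers the untreated and IgE levels overlapped, so that their values against untreated cells are close to those against IgE. Within groups the CV of the 9 tested genes ran from 0.93% to 18.2% in untreated, 0.2% to 13.6% in IgE and 1.56% to 8.83% in antigen libraries, beside medians over all tested genes of 4.46%, 6.27% and 4.33%. The largest of these, 18.2%, belonged to Mt2 in untreated cells.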

How the data were processed

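RNA sequencing of 9 libraries of mouse mast cells gave 1 table of 23951 gene symbols. The deposited values are FPKM that the authors computed. The submitters' processing notes name TopHat2 2.0.12, Bowtie 0.12.7 and the mouse build mm9. Not given in the sources used here are the FPKM program, the annotation and whether strand was used.

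Tests covered the 10890 genes that reached 1 FPKM in 3 or more libraries. limma 3.58.1 in R 4.3.3 was fitted to log2(FPKM + 1) with 1 coefficient per group, a trend in the prior and all 9 libraries. Tests were two-sided, and a Benjamini-Hochberg adjusted p under 0.05 was a call. The method was run on simulated data with independent normal noise and few changed genes. That run checks the code and not how well the model suits these data. Members and lists were chosen with earlier results of these data known. Named were all members, all metallothionein, Slc30 and Slc39 genes, up to 4 called MTF-1 target or copper genes per comparison, and the 5 nearest genes of 3 members.

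No label says that replicates came from separate cultures, so p-values measure the spread between these libraries, which may be technical. Depth was estimated from FPKM steps of 2966 genes with 1 GENCODE M21 transcript, estimated reads used the longest coding transcript, and both cover counting error only. Promoters are RefSeq sequences (GRCm38.p6). Alternatives covered pseudocount (0.1 and 0.5), filter, scaling, prior, libraries fitted, a replicate block, libraries left out, and zeros of chromosome X and Y genes in antigen replicate 3.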

Additional observations from a re-analysis of the deposited data

How the results depend on the processing

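Of 567 values for the tested members under 21 alternatives, 537 kept their direction and their side of the threshold. The 8 lost calls and 4 gained calls were all of Mtf1, and the 18 reversals were all differences between IgE and untreated cells that were not called. Antigen versus IgE gave 5 to 6 members higher and 3 lower under every alternative, IgE versus untreated 2 and 0, and antigen versus untreated 5 to 6 higher and 3 to 4 lower, the added one being Slc30a4 without the filter. Genes called for IgE versus untreated ranged with 1 library left out from 1015 to 1942 higher and from 880 to 1945 lower. The cause was not tested. Depth limits Slc30a4 and, in untreated and IgE cells, Mt2.

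No call of a member depended on a replicate block: with it 3830 genes were called higher and 3723 lower for antigen versus IgE, 1365 and 1135 for IgE versus untreated, and 3948 and 3672 for antigen versus untreated, with 5 and 3, 2 and 0, and 6 and 3 members. Pairing by replicate number was not clearly seen: 2 of 9 same-number pairs had r over 0.1 (-0.153 to 0.35), and 2 libraries correlated best with their own number. Pairs with different numbers had r from -0.349 to 0.244. With 3 libraries per group such correlations can show little, so a pairing is not excluded.

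Reversed log2 differences, for which the cause was not tested, were as follows. For IgE versus untreated, leaving out IgE replicate 3, alone or with antigen replicate 3, gave -0.028 (Slc30a1), -0.0413 (Slc39a6), -0.00149 (Slc39a10), -0.021 (Slc39a14) and -0.043 (Mtf1). Slc30a5 gave -0.000795 with median centring, -0.00934 with trimmed mean scaling, -0.0254 with quantile normalization and -0.0483 to 0.0582 with 1 library left out. With 1 library left out, the ranges were -0.028 to 0.0782 (Slc30a1), -0.0413 to 0.0655 (Slc39a6), -0.00489 to 0.0531 (Slc39a10), -0.021 to 0.118 (Slc39a14) and -0.043 to 0.0638 (Mtf1) for IgE versus untreated, -0.00117 to 0.0862 (Slc30a6) and -0.0788 to 0.0303 (Sco2) for antigen versus IgE, and -0.0227 to 0.0364 (Slc30a7) and -0.0751 to 0.0169 (Slc39a3) for antigen versus untreated. For antigen versus IgE, quantile normalization gave -0.00891 (Slc30a9), -0.194 (Csrp1) and -0.141 (Atox1), and leaving out IgE and antigen replicate 3 gave -0.00224 (Slc30a6). For antigen versus untreated, quantile normalization gave 0.0554 (Slc39a3) and -0.0217 (Commd1), and Slc30a7 gave -0.0196 with median centring, -0.011 with trimmed mean scaling and -0.0227 without IgE and antigen replicate 3.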
